A study of Mus musculus with 6 samples.

Results

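Semaphorins are secreted or membrane-bound guidance ligands, plexins are their receptors, and neuropilins are co-receptors that also bind growth factors of the VEGF family. Rows of the deposited raw count table were taken for 10 named genes of these families: the plexins Plxna1, Plxna2, Plxnb1, Plxnb2, Plxnc1 and Plxnd1, the neuropilins Nrp1 and Nrp2, and the transmembrane semaphorins Sema4b and Sema4d. All 10 were found among the 41921 rows, and 9 of them had enough counts to be tested. The exception was Plxnb1.

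RNA was sequenced from 6 libraries of RAW264.7, an established mouse monocyte/macrophage line of wild-type genotype per the labels. The labels put 3 libraries under albiflorin, a plant glycoside from peony roots, and 3 under RANKL, the cytokine that drives osteoclast formation. Every sample carries the same protocol text, in which cells 3 days past confluence were given RANKL at 50 ng/mL to start osteoclast differentiation. Whether the albiflorin cultures received RANKL as well is not stated apart from that text, no dose or time of albiflorin is stated there, and no untreated cells were analysed here. The libraries held 13673284 to 15489482 counts. Separate cultures are not named for the replicates, so each p-value rests on a spread between libraries that may be technical.

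In a plexin, the extracellular sema domain binds the ligand and the cytoplasmic part holds a GTPase-activating domain for Ras and Rap proteins. In mouse bone, Sema4d made by osteoclasts restrains osteoblasts through Plxnb1, Sema3a acting through Nrp1 restrains osteoclast formation, and Plxna1 promotes it in a complex with Trem2 and the adaptor Tyrobp. The comparison below asks how the RNA of these genes stood in albiflorin cultures against RANKL cultures.

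Receptors made up most of the expression. On the deposited FPKM scale, which is per kilobase of the listed gene length, the order of the levels over all 6 libraries was Plxnb2 (115.4 ± 16.6 FPKM, SD, n = 6), Plxnd1 (68.1 ± 10.4), Nrp2 (64.7 ± 8.62), Sema4d (23.6 ± 2.88), Plxnc1 (13.6 ± 1.19), Nrp1 (6.61 ± 0.647), Sema4b (6.37 ± 0.274), Plxna2 (3.24 ± 0.670), Plxna1 (2.35 ± 0.414) and Plxnb1 (0.00828 ± 0.00541). These SDs include the difference between the groups. Neighbours overlapped in their library values for Plxnd1 and Nrp2, for Nrp1 and Sema4b, and for Plxna2 and Plxna1, though Plxna2 stood above Plxna1 in all 6 libraries. Plxnb2 was above every other of these genes in all 6 libraries, since its lowest value, 92.3 FPKM, exceeded the highest of Plxnd1, 79.9 FPKM. The order was the same with CPM per kilobase of listed length. That scale differs from FPKM only in the library total, so it is no separate check. Per kilobase of the principal mRNA, Nrp2 (120.1 CPM per kb) came before Plxnd1 (72.3 CPM per kb). Nrp2 was then close to Plxnb2 (126.2 CPM per kb). The listed length of Nrp2 is 11736 bases, while its principal mRNA has 6357 bases. How the listed length was built is not stated.

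**Figure D1:**
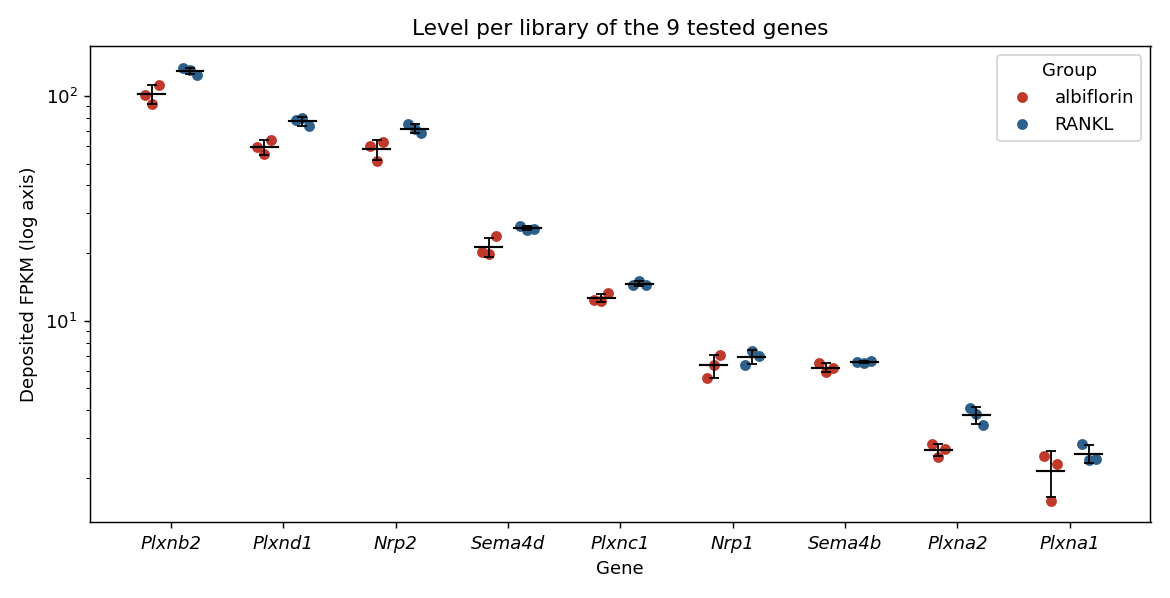
Deposited FPKM (log axis) of the 9 tested genes, with 1 point per library, a bar at the group mean and whiskers of 1 SD (n = 3 per group). Plxnb2 lay between 92.3 and 132.6 FPKM, and Plxna1 between 1.59 and 2.83 FPKM. Plxnb1 is not drawn because it had too few counts to be tested.

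Among the plexins alone, Plxnb2 took 56.8%, 56.5% and 57.8% of the summed plexin FPKM in albiflorin libraries and 57.2%, 56.4% and 57.1% in RANKL libraries. The share of Plxnd1 was 33.3%, 33.6% and 32.8% in albiflorin libraries and 33.6%, 34.4% and 33.6% in RANKL libraries. The share of Plxnc1 was 6.94%, 7.50% and 6.83% in albiflorin libraries, all above the 6.19%, 6.51% and 6.62% in RANKL libraries. The summed plexin level was 177.5, 163.5 and 193.4 FPKM in albiflorin libraries, against 231.9, 232.0 and 217.7 FPKM in RANKL libraries. Every albiflorin sum was below every RANKL sum. In bulk RNA, fewer cells expressing a gene and less RNA per cell cannot be told apart.

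Promoter sequences are shown for the 3 receptor genes with the highest levels, for the ligand Sema4d, and for Plxnb1, the gene that was almost silent. They come from RefSeq on GRCm38.p6 and run from 250 bases before to 50 bases after an annotated start, written 5′ to 3′ on the strand of the gene. Capitals mark matches on either strand to the AP-1 motif TGANTCA, the PU.1 motif GAGGAA, the NFAT motif TGGAAA, the Sp motif GGGCGG or the TATA motif TATAAA, and adjoining or overlapping matches run together.
Plxnb2, chr15:89180739-89181038, minus strand: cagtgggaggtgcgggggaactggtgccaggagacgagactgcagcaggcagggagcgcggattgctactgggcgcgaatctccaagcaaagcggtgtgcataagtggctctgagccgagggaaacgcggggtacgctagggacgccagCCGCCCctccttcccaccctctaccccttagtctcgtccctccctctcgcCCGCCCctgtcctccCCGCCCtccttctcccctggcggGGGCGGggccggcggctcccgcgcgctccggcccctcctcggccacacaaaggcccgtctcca
Plxnd1, chr6:115994956-115995255, minus strand: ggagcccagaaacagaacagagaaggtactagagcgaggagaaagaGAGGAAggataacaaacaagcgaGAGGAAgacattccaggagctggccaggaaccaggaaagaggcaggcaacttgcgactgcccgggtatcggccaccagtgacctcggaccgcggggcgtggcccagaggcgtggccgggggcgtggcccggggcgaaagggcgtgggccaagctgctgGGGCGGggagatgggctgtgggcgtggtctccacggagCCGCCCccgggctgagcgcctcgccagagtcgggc
Nrp2, chr1:62703067-62703366, plus strand: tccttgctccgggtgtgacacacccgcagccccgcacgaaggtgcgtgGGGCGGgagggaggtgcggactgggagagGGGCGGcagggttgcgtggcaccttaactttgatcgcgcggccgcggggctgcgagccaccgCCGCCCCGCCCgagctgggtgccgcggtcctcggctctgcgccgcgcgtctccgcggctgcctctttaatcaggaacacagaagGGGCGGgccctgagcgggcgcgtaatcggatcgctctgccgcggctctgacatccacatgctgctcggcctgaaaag
Sema4d, chr13:51748761-51749060, minus strand: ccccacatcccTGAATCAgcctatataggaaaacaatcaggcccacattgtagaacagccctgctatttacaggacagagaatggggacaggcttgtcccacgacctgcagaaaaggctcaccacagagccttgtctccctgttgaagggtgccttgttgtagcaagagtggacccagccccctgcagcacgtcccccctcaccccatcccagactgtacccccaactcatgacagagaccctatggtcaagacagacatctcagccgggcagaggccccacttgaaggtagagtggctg
Plxnb1, chr9:109095186-109095485, plus strand: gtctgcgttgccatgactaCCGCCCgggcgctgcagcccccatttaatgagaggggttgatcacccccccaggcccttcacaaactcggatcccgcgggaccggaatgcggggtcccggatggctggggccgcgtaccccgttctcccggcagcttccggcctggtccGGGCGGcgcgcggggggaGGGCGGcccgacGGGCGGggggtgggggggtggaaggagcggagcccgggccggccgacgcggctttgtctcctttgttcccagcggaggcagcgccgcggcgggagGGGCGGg

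The table held 13 promoters for 9 of the 10 genes. The Sp motif occurred 4 times in the Plxnb2 promoter shown, 2 times in that of Plxnd1, and 5 times each in those of Nrp2 and Plxnb1, and 35.7% of all 32851 promoters held at least 1. GC content was 70.3%, 67.0%, 70.7% and 74.7% in these 4 promoters, against a median of 52.7% over all. The other promoter listed for Plxnb2, not shown, held 3 Sp matches at a GC content of 61.7%. The Sema4d promoter shown had a GC content of 56.0%, no Sp match and 1 AP-1 match, which 7.81% of all promoters had. It is 1 of 3 listed for that gene and was chosen for that match. Neither of the others had an AP-1 match, 1 had an Sp match and the other an NFAT match, and the files do not say which start was used. The PU.1 motif, found in 28.3% of all promoters, occurred 2 times in the Plxnd1 promoter and 4 times in the Plxnc1 promoter. It occurred 1 time in the Nrp1 promoter and 1 time in each listed Sema4b promoter. NFAT (21.4% of all promoters) and TATA (13.6%) had no match in the 5 promoters shown. The near-silent Plxnb1 and the abundant Nrp2 thus held the same number of Sp matches.

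Of the 9 tested genes, 6 were lower in albiflorin cultures and 0 higher (edgeR quasi-likelihood test, Benjamini-Hochberg adjusted p under 0.05 over 13158 tested genes). Over all tested genes 23.8% were called, 11.4% lower and 12.4% higher. The median log2 fold change of the 9 genes was -0.28, beside 0.01 over all tested genes, and 9 of 9 estimates were negative. In 6 of the 9, every albiflorin library was below every RANKL library, as was the case for 19.3% of all tested genes, while 40.1% had no overlap in either direction. Fold changes were small: in the called genes the fitted level in albiflorin cultures was 70.3% to 86.4% of that in RANKL cultures. Values of single genes below are normalised read counts (CPM on TMM-scaled library sizes).

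The ligand Sema4d (MGP_C57BL6NJ_G0020938, chromosome 13, 52495304 to 52601381, minus strand) had 132.0, 128.7 and 154.0 CPM in albiflorin libraries, against 171.6, 164.7 and 166.3 CPM in RANKL libraries. The groups did not overlap, and albiflorin replicate 3 stood nearest to the RANKL libraries. Sema4d fell to a mean of 138.2 ± 13.7 CPM in albiflorin cultures, against 167.5 ± 3.63 CPM in RANKL cultures (SD, n = 3 each), a log2 fold change of -0.28 ± 0.0697 (SE, edgeR adjusted p = 0.00951). Without albiflorin replicate 1 it was not called (log2 fold change -0.24, edgeR adjusted p = 0.0594). Its relative Sema4b (MGP_C57BL6NJ_G0032886, chromosome 7, 85373461 to 85412964, plus strand), also a membrane-bound semaphorin, had 35.9, 32.9 and 34.0 CPM in albiflorin libraries and 36.1, 35.8 and 36.8 CPM in RANKL libraries. Those groups overlapped, and Sema4b was not called (log2 fold change -0.08, 95% interval -0.24 to 0.09, edgeR adjusted p = 0.501).

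Plxnb2, a receptor for class 4 semaphorins (MGP_C57BL6NJ_G0022631, chromosome 15, 93611600 to 93636912, minus strand), had 717.5, 658.3 and 793.7 CPM in albiflorin libraries, against 941.2, 927.0 and 882.6 CPM in RANKL libraries. Its log2 fold change was -0.34 ± 0.071 (SE, edgeR adjusted p = 0.00307), with no overlap between the groups. Plxnd1, the receptor of Sema3e and also of Sema4a (MGP_C57BL6NJ_G0031600, chromosome 6, 121622838 to 121663217, minus strand), had 434.5, 404.2 and 465.0 CPM in albiflorin libraries, against 571.8, 585.1 and 536.6 CPM in RANKL libraries. It fell by 0.38 on the log2 scale (SE 0.0665, edgeR adjusted p = 0.00117). For both receptors albiflorin replicate 2 was lowest and albiflorin replicate 3 highest among the albiflorin libraries.

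Plxna2, a receptor for class 6 semaphorins (MGP_C57BL6NJ_G0017365, chromosome 1, 208151787 to 208359849, plus strand), had the most negative estimate of the 9. It stood at 47.6, 41.8 and 45.4 CPM in albiflorin libraries, against 69.1, 64.9 and 58.0 CPM in RANKL libraries (log2 fold change -0.51 ± 0.0796 SE, edgeR adjusted p = 0.000587). It was also the gene of these 9 that passed a test against a 1.2-fold change (edgeR adjusted p = 0.0374). Plxna1, the Trem2 partner (MGP_C57BL6NJ_G0031455, chromosome 6, 93206861 to 93253167, minus strand), had 22.95, 14.5 and 21.1 CPM in albiflorin libraries and 25.8, 21.9 and 22.1 CPM in RANKL libraries. The groups overlapped, and albiflorin replicate 2 stood far below the other libraries with 195 counts, against 300 to 351 in the rest. Plxna1 was not called (log2 fold change -0.25, 95% interval -0.54 to 0.04, edgeR adjusted p = 0.204), and without albiflorin replicate 2 its log2 fold change was -0.08.

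Plxnc1, the receptor of Sema7a (MGP_C57BL6NJ_G0018065, chromosome 10, 99488893 to 99648416, minus strand), had 97.3, 97.0 and 104.1 CPM in albiflorin libraries, against 113.0, 118.6 and 113.5 CPM in RANKL libraries. Its fall was the smallest among the called genes (log2 fold change -0.21 ± 0.0605 SE, edgeR adjusted p = 0.019). It was not called without albiflorin replicate 1 (log2 fold change -0.19, edgeR adjusted p = 0.0905) or without RANKL replicate 2 (-0.19, 0.0643). Plxnb1, the high-affinity receptor of Sema4d (MGP_C57BL6NJ_G0035820, chromosome 9, 114082071 to 114106707, plus strand), had 1, 0 and 2 counts in albiflorin libraries and 1, 1 and 2 counts in RANKL libraries. A count of 0 in albiflorin replicate 2 allows up to 0.223 CPM, for counting error only, and no difference was detectable at this depth.

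Nrp2, the co-receptor of Sema3f and VEGF-C (MGP_C57BL6NJ_G0016474, chromosome 1, 65236528 to 65366416, plus strand), had 711.0, 605.1 and 734.8 CPM in albiflorin libraries, against 881.1, 841.8 and 805.1 CPM in RANKL libraries. The groups did not overlap and its log2 fold change was -0.30 ± 0.0741 (SE, edgeR adjusted p = 0.00831). An uncharacterised row on the same strand inside Nrp2 held 39 to 92 counts per library. Nrp1, the co-receptor of Sema3a and VEGF-A (MGP_C57BL6NJ_G0034792, chromosome 8, 136586172 to 136742155, plus strand), had 33.6, 38.6 and 42.5 CPM in albiflorin libraries and 38.4, 44.4 and 42.0 CPM in RANKL libraries. These overlapped, and Nrp1 was not called (log2 fold change -0.12, 95% interval -0.32 to 0.07, edgeR adjusted p = 0.359).

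Since one member of each pair of close relatives was called and the other was not, the difference within each pair was tested as a ratio of FPKM within a library, for 3 pairs chosen after their values had been seen. The Nrp2 to Nrp1 ratio was 10.8, 8.02 and 8.85 in albiflorin libraries and 11.7, 9.70 and 9.81 in RANKL libraries (exact permutation test, two-sided p = 0.4, adjusted p = 0.4). The Sema4d to Sema4b ratio was 3.14, 3.34 and 3.87 in albiflorin libraries and 4.06, 3.93 and 3.86 in RANKL libraries (exact p = 0.2, adjusted p = 0.4). The Plxna2 to Plxna1 ratio was 1.28 ± 0.243 in albiflorin libraries and 1.49 ± 0.0971 in RANKL libraries (SD, n = 3 each; exact p = 0.3, adjusted p = 0.4). With 3 libraries a group the smallest p this test can give is 0.1. A p under 0.05 was therefore out of reach, so the test could not decide whether the genes of a pair differed in their response.

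**Figure D2:**
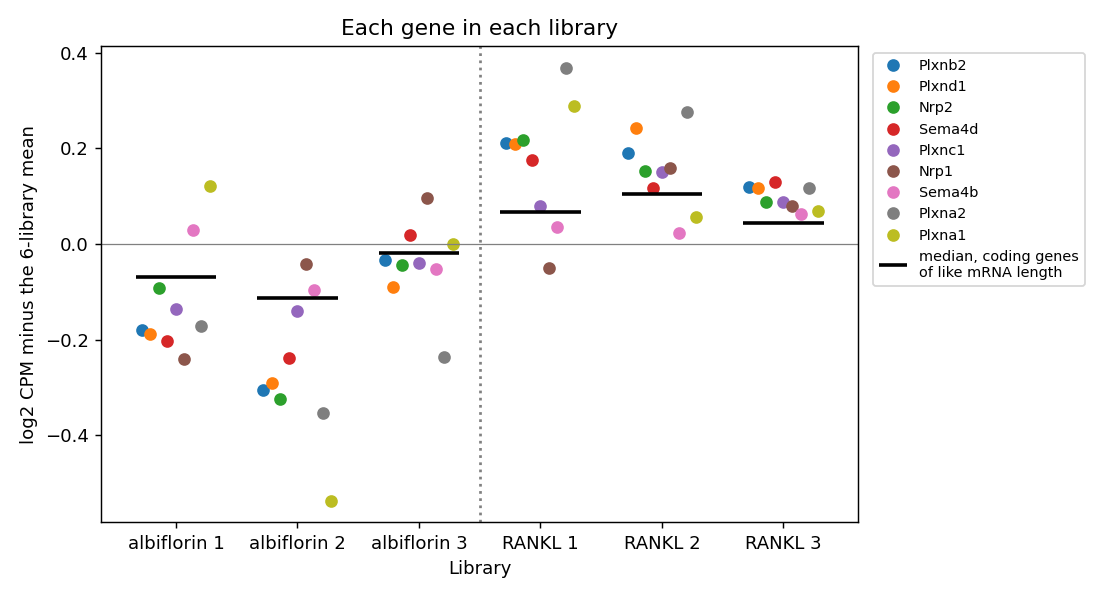
Log2 CPM of each tested gene minus its 6-library mean, by library, with a black bar at the median of 3851 coding genes whose mRNA length lies in the range of these genes. In albiflorin replicate 2 all 9 genes were below their mean, and in RANKL replicates 2 and 3 all 9 were above it.

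The libraries of a group were not alike. The median deviation of the 9 genes from their 6-library mean (log2 CPM) was -0.17, -0.29 and -0.04 in albiflorin replicates 1, 2 and 3, against 0.21, 0.15 and 0.09 in RANKL replicates 1, 2 and 3. Coding genes with an mRNA length in the range of these genes moved the same way to a smaller extent. Their medians were -0.07, -0.11 and -0.02 in the albiflorin libraries, against 0.07, 0.11 and 0.04 in the RANKL libraries. They were not matched to the 9 genes in length within that range, so the gap between the sets may include a difference in length. In both sets albiflorin replicate 2 was lowest and albiflorin replicate 3 closest to the mean.

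Among tested coding genes, longer transcripts had lower fold changes, and the transcripts described here are long. The tested members had principal mRNAs of 3597 (Nrp1) to 11040 bases (Plxna2) in GENCODE M21, while the median tested coding gene had 2984 bases. Spearman's rank correlation between mRNA length and log2 fold change was -0.622 across 10541 coding genes, given as a description since genes of the same libraries are not independent. Among 3851 coding genes in the members' length range 28.1% were called lower, with a median log2 fold change of -0.14. Counted within that range, the log2 fold change of Plxna2 lay at percentile 2.96, that of Plxnd1 at 8.7, Plxnb2 at 11.9, Nrp2 at 16.5, Sema4d at 20.2, Plxna1 at 25.1, Plxnc1 at 32.3, Nrp1 at 53.2 and Sema4b at 62.8. The range is wide and its genes were not matched to the length of each member. These percentiles therefore do not take out the length trend within the range, least of all for Plxna2, the longest.

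**Figure D3:**
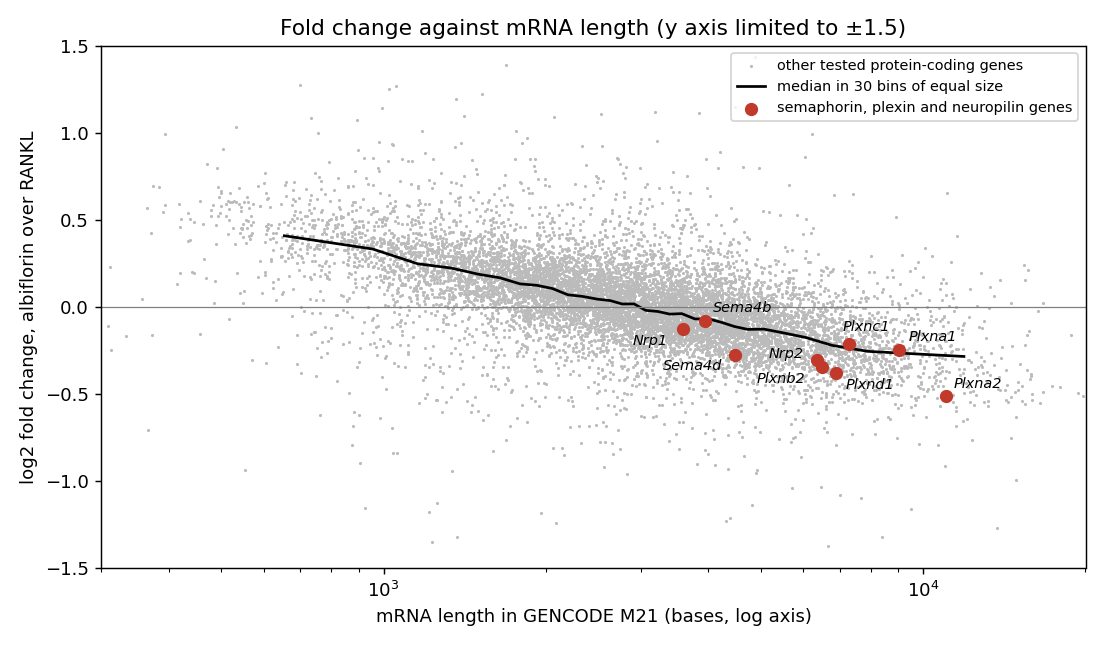
Log2 fold change (albiflorin over RANKL) against mRNA length (log axis) for tested coding genes, with the median in 30 bins of equal size and the 9 tested semaphorin, plexin and neuropilin genes in red. Plxnc1, Plxna1 and Sema4b lie near the median line, while Plxna2, Plxnd1, Plxnb2 and Sema4d lie below it. Outside the drawn area lie 10 genes by fold change and 12 by length.

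When each library's trend on the listed gene length was removed, 3 of the 9 were called lower and 0 higher, where 15.1% of all tested genes were called, 7.96% lower and 7.18% higher, and 12.6% of coding genes in the length range were lower. Those 3 were Plxnd1 (log2 fold change -0.25 ± 0.0534 SE, edgeR adjusted p = 0.00461), Plxnb2 (-0.23 ± 0.0574, 0.0138) and Plxna2 (-0.26 ± 0.0717, 0.0198). Sema4d kept a log2 fold change of -0.18 and just missed the threshold (edgeR adjusted p = 0.0531). When the trend on mRNA length was removed, only Plxnd1 of the 9 was called lower (-0.17 ± 0.0476, edgeR adjusted p = 0.0278), and 0 were higher. Of all tested genes 10.5% were then called, 5.46% lower and 5.01% higher, and 5.84% of those in the length range were lower. Sema4d (-0.18, edgeR adjusted p = 0.0555), Plxna2 (-0.22, 0.0572) and Plxnb2 (-0.15, 0.069) were then close to the threshold, and Nrp2 (-0.12, 0.196) was farther from it. Plxnc1, which was called before the removal, then stood at 0.00 (edgeR adjusted p = 0.977). How much of the fall of each gene came with the length trend in these libraries, and what made that trend, was not tested.

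**Figure D4:**
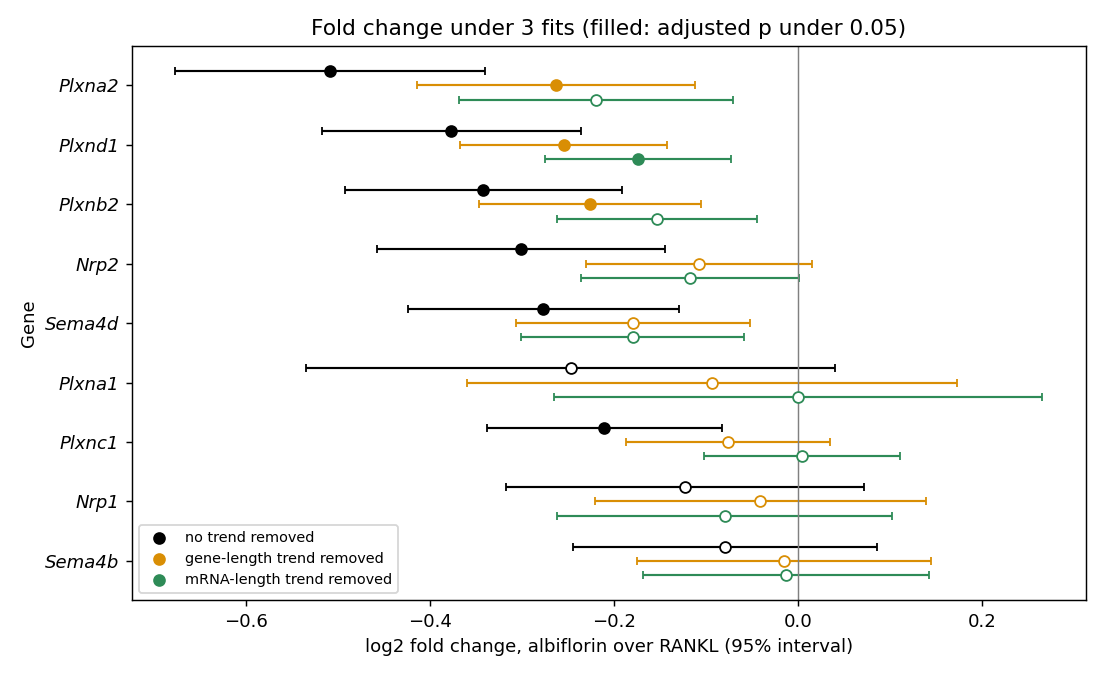
Log2 fold change (albiflorin over RANKL) with 95% intervals for the 9 tested genes, without and with removal of a length trend; filled points passed an adjusted p of 0.05. All 9 estimates without removal are below 0, and with the mRNA-length trend removed Plxnd1 alone is filled.

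For 2 genes with a described role in osteoclasts, the coding genes with the most similar pattern over the 6 libraries were looked up among 8784 by Pearson's r of log2 CPM, as a description. For Sema4d they were Nomo1 (r = 0.998), Dhx8 (r = 0.997) and Tnk2 (r = 0.997), and 369 genes had r over 0.95. For Plxna1 they were Ptpn21 (r = 0.996), Edrf1 (r = 0.987) and Cast (r = 0.987), and 20 genes had r over 0.95. The Plxna1 pattern rested mostly on albiflorin replicate 2, at -0.54 from the 6-library mean in log2 CPM. Every other library lay between 0.0008 and 0.29. Ptpn21, Edrf1 and Cast were not called (edgeR adjusted p = 0.242, 0.37 and 0.42). The points share the 6 libraries and their group difference.

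Other genes of the pathway were taken from lists drawn up from general knowledge. Of 25 further semaphorin, plexin and neuropilin-related genes, 10 were tested, 0 were higher and 2 lower, with a median log2 fold change of -0.08, and that count is near the 23.8% called among all tested genes. Sema5a, a semaphorin with thrombospondin repeats (chromosome 15, 31734538 to 32200605), had 4.73, 4.33 and 5.14 FPKM in albiflorin libraries, against 7.004, 7.35 and 6.06 FPKM in RANKL libraries. It fell by 0.52 on the log2 scale (SE 0.0825, edgeR adjusted p = 0.000649) and has an mRNA of 10809 bases. It was still called with the mRNA-length trend removed (-0.23, edgeR adjusted p = 0.0273). Sema4a, an immune semaphorin (chromosome 3, 91896509 to 91919651), had the highest level of any semaphorin measured, at 35.9, 36.4 and 38.6 FPKM in albiflorin libraries, against 42.0, 42.1 and 43.4 FPKM in RANKL libraries (log2 fold change -0.20 ± 0.0583 SE, edgeR adjusted p = 0.0222). Its call ended without albiflorin replicate 1 (edgeR adjusted p = 0.109), RANKL replicate 1 (0.0522) or RANKL replicate 3 (0.0866) and with the gene-length trend removed (0.0736), and held with the mRNA-length trend removed (0.0256).

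Among the other semaphorins, the membrane-bound Sema6b had 8.997 FPKM in albiflorin cultures and 8.295 FPKM in RANKL cultures, Sema4c had 3.73 FPKM in either group, and Sema4g had 3.03 FPKM in albiflorin cultures and 3.32 FPKM in RANKL cultures, with none of these called. The 7 class 3 semaphorins, the secreted ligands of neuropilins, had mean levels of at most 0.0799 FPKM, with Sema3a, Sema3c and Sema3e at 0 counts in all 6 libraries. Sema7a, the ligand of Plxnc1, averaged 0.0717 FPKM in albiflorin cultures and 0.105 FPKM in RANKL cultures, while Sema6d, a ligand of Plxna1, averaged 0.0793 FPKM in albiflorin cultures and 0.0803 FPKM in RANKL cultures. Over the 35 genes of both sets, 15 had a mean level above 1 FPKM.

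Among 22 co-receptors and partner receptors, 8 were tested, 1 was higher and 2 were lower (median log2 fold change -0.09), beside 12.4% higher and 11.4% lower among all tested genes. Tyrobp, which encodes the adaptor DAP12 that carries the Plxna1 and Trem2 signal, rose to 527.3 ± 61.1 FPKM in albiflorin cultures, against 399.1 ± 28.0 FPKM in RANKL cultures (SD, n = 3 each; log2 fold change 0.41, edgeR adjusted p = 0.0022). Its mRNA has 564 bases, and removing the trend on gene length left a log2 fold change of -0.01 (edgeR adjusted p = 0.932), on mRNA length -0.04 (0.7). Trem2, named outside the rule for its place in this complex, was not called (log2 fold change 0.13, edgeR adjusted p = 0.177), nor with the gene-length trend removed (0.17, 0.0785), but was called lower with the mRNA-length trend removed (-0.16, 0.0418). Lrp1, a large endocytic receptor with a 14888-base mRNA, fell to 28.7 ± 3.48 FPKM in albiflorin cultures, against 44.5 ± 1.10 FPKM in RANKL cultures (log2 fold change -0.63, edgeR adjusted p = 0.000191), and was still called with either trend removed. L1cam, an adhesion partner of Nrp1, fell by 0.31 (SE 0.0858, edgeR adjusted p = 0.0165), but was not called with the gene-length trend (edgeR adjusted p = 0.11) or mRNA-length trend (0.147) removed, nor without albiflorin replicate 2 (0.0588), RANKL replicate 2 (0.0514) or RANKL replicate 3 (0.0549).

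Cd72, the immune-cell receptor of Sema4d, had 82.4 ± 2.16 FPKM in albiflorin cultures and 78.4 ± 8.36 FPKM in RANKL cultures and was not called (log2 fold change 0.08, 95% interval -0.08 to 0.23, edgeR adjusted p = 0.489). Of the known receptors of Sema4d, these cells thus held Cd72 and Plxnb2 RNA in plenty and Plxnb1 RNA at the limit of detection. The integrin subunit gene Itgb1, a receptor chain for Sema7a, was not called either (log2 fold change -0.05, edgeR adjusted p = 0.641). Of 9 listed growth-factor ligands of neuropilins, 8 were matched to a row and 4 were tested. Vegfa was not matched, so its level was not read. Among the 4 tested, 1 was higher, namely Vegfb (log2 fold change 0.29 ± 0.079 SE, edgeR adjusted p = 0.0143). It was not called with either length trend removed (0.458 for gene length, 0.883 for mRNA length), nor without albiflorin replicate 1 (0.0529), albiflorin replicate 2 (0.0615) or RANKL replicate 2 (0.0706).

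Of 51 tested cytoplasmic effectors of plexins, 5 were higher, 14 lower and 32 not called, with a median log2 fold change of -0.04, beside 12.4% higher and 11.4% lower among all tested genes. Both exchange factor genes whose products bind B-class plexins and activate RhoA fell: Arhgef11 by 0.52 (SE 0.0892, edgeR adjusted p = 0.00103) and Arhgef12 by 0.43 (SE 0.0699, edgeR adjusted p = 0.000728) on the log2 scale. Arhgap35, a GTPase-activating gene that opposes RhoA, fell as well (-0.42 ± 0.086, edgeR adjusted p = 0.00286), as did the actin cross-linker Flna (-0.42, 0.00182) and the RhoA-dependent kinase Rock1 (-0.32, 0.00453). The actin-severing Cfl1 (0.28 ± 0.069, edgeR adjusted p = 0.00845), the myosin light chain gene Myl12b (0.33, 0.00392) and the blood-cell GTPase Rac2 (0.22, 0.0187) rose. Of these 8 genes, Cfl1 (log2 fold change 0.00, edgeR adjusted p = 0.965) and Myl12b (0.14, 0.109) lost the call with the gene-length trend removed. With the mRNA-length trend removed it was lost by Arhgef12 (-0.15, edgeR adjusted p = 0.137), Arhgap35 (-0.17, 0.178), Flna (-0.18, 0.0544) and Rock1 (-0.13, 0.156). Arhgef11 and Rac2 were called with either trend removed. Rac2 was not called without albiflorin replicate 1 (0.0671) or RANKL replicate 2 (0.0789). Removing the gene-length trend left 2 effectors higher and 6 lower, where 15.1% of all tested genes were called, and removing that on mRNA length left 4 higher and 3 lower, where 10.5% were called.

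The abundant effectors Rac1 (log2 fold change 0.03, edgeR adjusted p = 0.775), Rap1a (-0.01, 0.891), Rap1b (0.03, 0.781), the membrane-cytoskeleton linker Msn (-0.10, 0.246) and the adaptor Grb2 (0.06, 0.521) were not called. Of 5 tested genes for enzymes that shed or process semaphorins and their inhibitors, 1 was lower, the protease Furin (-0.22 ± 0.0654 SE, edgeR adjusted p = 0.0241), whose call ended with either length trend removed (0.548 and 0.153) and without any one of albiflorin replicates 1 and 2 and RANKL replicates 1 and 2 (0.0519 to 0.141). The sheddase gene Adam10 was not called (-0.11, edgeR adjusted p = 0.231).

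**Figure D5:**
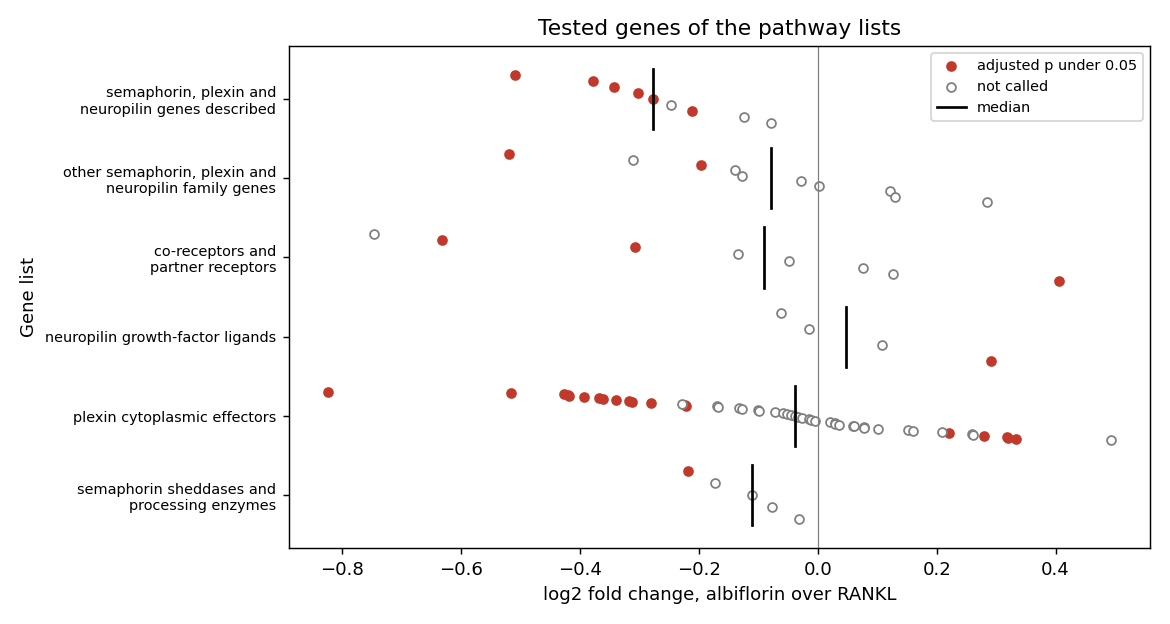
Log2 fold change (albiflorin over RANKL) of the tested genes of each list; filled red points passed an adjusted p of 0.05, open points did not, and black bars are medians. The 9 semaphorin, plexin and neuropilin genes at the top have a median of -0.28, and the medians of the other lists lie between -0.11 and 0.05.

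Markers were read as a check of the cells. Of 9 matched macrophage markers, 6 exceeded a mean of 1 FPKM, led by Cd68, Cd14 and Csf1r, while Mrc1 and Mertk averaged at most 0.196 FPKM. Itgam averaged 0.0025 FPKM, with a count of 1 in RANKL replicate 1 and 0 in every other library. Whether such a row reflects absent RNA or reads lost in alignment or counting was not tested, for Itgam as for Plxnb1. The 9 macrophage markers summed to 1554 to 1587 FPKM in albiflorin libraries and 1360 to 1525 FPKM in RANKL libraries. Cd14 was called higher (log2 fold change 0.26, edgeR adjusted p = 0.0119), though not with either length trend removed (0.611 and 0.301) or without RANKL replicate 2 (0.0543), while Adgre1 was called lower (-0.30, 0.00933), also with either trend removed (0.00415 and 0.0138). Of 12 osteoclast markers 7 exceeded 1 FPKM, among them Nfatc1 and Acp5, while Ctsk averaged 0.378 FPKM and Calcr had 0 counts throughout. The 12 summed to 429.2 to 485.9 FPKM in albiflorin libraries and 376.2 to 385.9 FPKM in RANKL libraries, mostly from Car2. Their members went both ways: Car2 (log2 fold change 0.29, edgeR adjusted p = 0.00594) and Acp5 (0.29, 0.0371) were called higher and Nfatc1 lower (-0.22, 0.018). All 3 calls ended with the mRNA-length trend removed (0.109, 0.624 and 0.145), and those of Acp5 and Nfatc1 also once the trend on gene length was taken out (0.618 and 0.209) or single libraries were left out (Acp5 0.0892 to 0.142, without albiflorin replicate 1 or 2 or RANKL replicate 1 or 2; Nfatc1 0.0545 to 0.0781, without albiflorin replicate 1 or 2 or RANKL replicate 2). Endothelial, lymphocyte and neural lists, cell types that also use these receptors, summed to at most 0.631 FPKM in any library, with Cd3e, Cd8a, Ms4a1, Map2 and Snap25 at 0. Of 7 matched osteoblast and stromal markers only Spp1, which macrophages also express, exceeded 1 FPKM, and that list summed to 594.8 to 674.7 FPKM in albiflorin libraries and 431.0 to 467.5 FPKM in RANKL libraries. Spp1 was called higher (log2 fold change 0.52, edgeR adjusted p = 0.000258), also with the gene-length trend (0.00105) or mRNA-length trend (0.00111) removed. The part of these markers in the values above was not tested.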

How the data were processed

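RNA sequencing data of 6 libraries, 3 per group by their titles, were analysed. Raw counts per gene were deposited as whole numbers, and FPKM were deposited by the authors for the same rows. Each FPKM is the count per kilobase of listed length over a library total of its own, -0.95% to 1.65% away from the column sum. The submitters' processing notes list HISAT2 2.2.1, featureCounts 2.0.6-p3, fastp, CASAVA 1.8 and DESeq2 1.42.0 without saying what each did. No genome build is stated. Gene identifiers carry the C57BL/6NJ prefix, and gene coordinates are those of the count table; promoters are on GRCm38.p6. The cells derive from a BALB/c mouse, and loss of reads at strain differences was not tested. The strand setting of the counting is not stated.

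Counts were tested with edgeR 4.0.16 in R 4.3.3 (filterByExpr, TMM scaling, quasi-likelihood F-test on group, Benjamini-Hochberg over all tested genes). Every log2 fold change sets albiflorin over RANKL. An SE is the absolute log2 fold change over the square root of F. Length trends were removed per library by lowess (span 0.3, genes with mean log2 CPM over 3) through offsets, and genes without a GENCODE M21 mRNA length took the listed gene length. An mRNA length was found for 80.4% of tested genes. DESeq2 1.42.0 and limma 3.58.1 served as alternatives. Some of the fits were also run on simulated counts. Those counts held no length trend, so they cannot show how well a length trend was removed. The members, lists and alternatives were chosen with earlier results of these data known. Named in the text are all 10 members and, per list, up to 6 called genes by p and those with a mean of at least 50 FPKM. Called markers, Trem2, Sema6b, Sema4c and Sema4g were named after their values were seen. A marker gene read in the check of the cells is not reported here.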

Additional observations from a re-analysis of the deposited data

How the results depend on the processing

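Of the 6 genes called lower, Plxna2 and Plxnd1 kept the call in 17 of 18 alternatives, Plxnb2 in 16, Nrp2 in 14, Sema4d in 13 and Plxnc1 in 12. Their edgeR, DESeq2 or limma adjusted p ranged from 7.81e-09 to 0.0572 for Plxna2, 1.34e-07 to 0.23 for Plxnd1, 1.41e-06 to 0.431 for Plxnb2, 3.02e-05 to 0.685 for Nrp2, 0.00044 to 0.837 for Sema4d and 0.0094 to 1 for Plxnc1. Plxna1, Nrp1 and Sema4b were called in none of the 18. Lists are given below in the order other family genes, co-receptors, growth-factor ligands, effectors and sheddases.

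Against a 1.2-fold change 1 of the 9 genes was lower, with 193 genes higher and 105 lower in all, and the lists held 1, 1, 0, 0 and 0 calls. With the gene-length trend removed 3 were lower and 945 genes were higher in all, and the lists held 1, 1, 0, 8 and 0 calls. With the mRNA-length trend removed 1 was lower, 659 genes were higher and 718 lower in all, and growth-factor ligands, effectors and sheddases held 0, 7 and 0. On log2(FPKM + 1) with limma 901 genes and on log2(FPKM + 0.1) 909 genes were lower in all, sheddases held 0 in both, and effectors 12 in the second. DESeq2, limma-voom and no low-count filter gave 2 sheddases. Leaving out 1 library gave 4 to 6 of the 9 genes lower and 0 higher, 1005 to 1664 genes higher and 897 to 1748 lower in all, and lists of 1 to 2, 2 to 3, 0 to 1, 15 to 21 and 0 to 2 calls.

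The replicate numbers gave no sign of pairing the libraries: same-numbered deviations correlated at 0.0219, -0.0433 and -0.0664, and not every library correlated best with its own number. Whether same-numbered libraries shared a culture or batch was not tested. With the replicate block 6 of the 9 genes were lower, and 1358 genes were higher and 1214 lower in all. With the block and the gene-length trend removed 3 of the 9 were lower, 813 genes were higher and 887 lower in all, and the lists held 1, 1, 0, 7 and 0 calls.

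Signs turned for Plxnc1 (0.0039 with the mRNA-length trend removed), Tyrobp (-0.0093 with the gene-length trend removed, -0.0091 with the block as well and -0.035 with the mRNA-length trend removed) and Cfl1 (-0.0050 with the gene-length trend removed, -0.0048 with the block as well). Among genes not called they turned for Cd72 (-0.13 with the mRNA-length trend removed, -0.0064 to 0.15 over the libraries left out), Trem2 (-0.16 with the mRNA-length trend removed, then called lower), Itgb1 (0.0099 with the mRNA-length trend removed), Rap1b (-0.13 with the gene-length trend removed, with and without the block, -0.00059 with the mRNA-length trend removed, -0.00087 to 0.067 over the libraries left out), Grb2 (-0.010 with the gene-length trend removed, with and without the block), Rac1 (-0.0030 to 0.051 over the libraries left out) and Rap1a (-0.047 to 0.013 likewise). The cause of these changes was not tested. Plxnb1 and several semaphorins had too few counts to be tested. Whether sequencing depth set this was not tested.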
